A study of Homo sapiens with 9 samples.

Results

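The integrated stress response and amino acid genes described here are 40 genes of 27315 in the deposited expression table, chosen by symbol for their known functions. They were chosen with earlier results of these data known, so their shares set beside those of all genes are descriptions. All 40 were present and expressed highly enough to be tested. The samples were polyadenylated RNA of MDA-MB-468, a human cell line of triple-negative breast cancer cultured in RPMI 1640 medium with serum. The 9 libraries were 3 with a hairpin named sh6 against BBOX1, 3 with a hairpin named sh1 against BBOX1 and 3 with a scrambled control hairpin. All 9 came from cells infected with lentivirus and drug-selected, and the labels give target sequences for hairpins named sh1 and sh2 but not for sh6. BBOX1 encodes gamma-butyrobetaine hydroxylase, the last enzyme of carnitine synthesis, and the comparisons ask how these genes changed when it was silenced.

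The integrated stress response lets a cell react to amino acid shortage, misfolded protein, haem lack or double-stranded RNA through a shared step, the phosphorylation of the translation factor eIF2. General protein synthesis then falls, while a few messages with upstream reading frames, above all that of the transcription factor ATF4, are translated more. ATF4, paired with C/EBP family proteins, switches on genes that make and import amino acids, feed carbon into serine and folate metabolism, and, when stress persists, promote cell death through CHOP. Much of ATF4 control lies in translation, so the level of ATF4 mRNA and the activity of the protein can differ. Cancer cells, breast cancer cells among them, are known to use this programme for serine, asparagine and cystine supply.

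The DNA element through which ATF4 acts with C/EBP proteins has the core letters TGATGNAA. Some of the 40 genes, which were chosen by function, are known targets of ATF4, so the presence of this core is shown as a description. Promoter windows from RefSeq (GRCh38.p14) reaching from 250 bases before to 50 bases after the start site were available for 34 of the 40 genes. The core stood on either strand in 8 of these 34 windows (23.5%), against 3.67% of 27305 windows of all genes and 1.56% of 10061 windows of genes tested here. The genes whose windows held it were PPP1R15B, ATF3, MTHFD1L, ASNS, SLC3A2, SLC38A1, SLC7A1 and CHAC1. In 5 of them it lay wholly upstream of the start, and these stretches are printed in the orientation of the gene with the core, or its reverse complement in CHAC1, in capitals.
CHAC1: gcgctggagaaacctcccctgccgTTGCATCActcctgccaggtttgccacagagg
ASNS: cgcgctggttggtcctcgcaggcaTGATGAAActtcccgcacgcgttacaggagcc
ATF3: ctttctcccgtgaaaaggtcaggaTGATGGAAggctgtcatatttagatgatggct
PPP1R15B: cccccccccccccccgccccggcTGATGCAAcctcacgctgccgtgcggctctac
MTHFD1L: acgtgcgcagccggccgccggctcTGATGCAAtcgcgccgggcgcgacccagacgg
The stretches lie at chr15:40953238-40953293 on the plus strand, chr7:97872445-97872500 on the minus strand, chr1:212565192-212565247 on the plus strand, chr1:204412013-204412067 on the minus strand and chr6:150866333-150866388 on the plus strand, all in GRCh38.p14. The core occupied bases 209 to 202 before the start site in CHAC1, 68 to 61 in ASNS, 191 to 184 in ATF3, 227 to 220 in PPP1R15B and 129 to 122 in MTHFD1L. A match describes letters only and does not show that a factor binds there.

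BBOX1 mRNA was lower in all 6 hairpin libraries than in the controls. It had normalised counts, meaning counts scaled for depth and recovered from the deposited values, of 606, 618 and 581 with sh6, 324, 346 and 328 with sh1, and 2703, 2785 and 2359.8 in the control libraries. The means with sh6 and sh1 were 23.0% and 12.7% of the control mean. Recovered depths ran from 15727254 to 19731729 reads per library, and over 13165 genes, which are not independent replicates, r between libraries within a group was 0.995 to 0.998. Of 7 markers of basal and epithelial cells, 6 averaged at least 578 in every group and KRT14 was low, at 28.6 with sh6, 83.6 with sh1 and 44.1 in control cells. They did not move together, with 3 higher and 2 lower with sh6, and 4 higher and 2 lower with sh1. The highest of them, chosen for its level, was EGFR, which averaged 43436 ± 1438 with sh6, 58770.0 ± 1178 with sh1 and 55160.0 ± 1145 in control cells (SD, n = 3 each). Of the receptors that define triple-negative cells by their lack, PGR was at 0 in every library, while ESR1 averaged 109 ± 10.3 with sh6, 242 ± 15.0 with sh1 and 227 ± 22.5 in control cells (SD, n = 3 each) and ERBB2 602 ± 33.5 with sh6, 753 ± 9.06 with sh1 and 1091 ± 22.2 in control cells (SD, n = 3 each). Of 8 markers of leucocytes, endothelium and fibroblasts, 7 averaged at most 24.6 in any group, and COL1A1 averaged 332 ± 43.8 with sh6, 304 ± 31.4 with sh1 and 374 ± 58.4 in control cells (SD, n = 3 each) beside 1.72 for COL1A2 in control cells. Nothing in the labels states that libraries within a group are separate cultures, so the spread behind each p-value is that between libraries and may be technical. These are bulk RNA samples, in which a change in every cell and a change in the share of cells cannot be told apart.

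With sh6 most of the stress and amino acid genes were lower than in control cells. A gene was called changed at an adjusted p under 0.05 in limma over all 13165 genes tested. Of the 40 genes, 34 were called (67.8% of all genes tested were), 28 of them lower (33.6% of all genes) and 6 higher (34.2%). The median log2 change of the 40 was -0.40, against 0.0058 over all genes tested. With changes of at least 1.5-fold on the deposited log2 scale also required, 18 of the 40 were called (18.4% of all genes), 16 of them lower. By the ratio of mean counts CTH, called lower with sh6, also passed that size, with control 1.58-fold higher.

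With sh1 the same set was split. Of the 40 genes, 27 were called (58.9% of all genes), 13 lower (30.0%) and 14 higher (29.0%), and the median log2 change was 0.04, against 0.00095 over all genes tested. At 1.5-fold or more on the deposited log2 scale, PPP1R15A and CBS were called with sh1, both higher, which makes 2 of the 40 (12.5% of all genes). By the ratio of mean counts VLDLR, called lower with sh1, also passed that size, with control 1.51-fold higher. The mean of both hairpins called 31 genes (65.5% of all genes), 23 lower (33.1%) and 8 higher (32.3%), and 6 at 1.5-fold or more on the deposited log2 scale (12.3%). Without control replicate 1 the 8 higher became 5.

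Set against each other, sh6 libraries were lower than sh1 libraries for most of the set. The difference was called for 29 of the 40 genes (59.7% of all genes), with 26 lower with sh6 (28.9%) and 3 higher with sh6 (30.8%). In 16 of the 40 it reached 1.5-fold on the deposited log2 scale (11.6% of all genes), always toward lower values with sh6. By the ratio of mean counts CTH, called lower with sh6 than with sh1, also passed that size, with sh1 1.69-fold higher. Both comparisons with control cells use the same 3 control libraries, so their calls are not independent. Both hairpins called 17 genes in the same direction (38.3% of all genes), 12 lower (19.4%) and 5 higher (18.9%), and 1 of them, CBS, at 1.5-fold or more with each on the deposited log2 scale (6.61%), to which count ratios would add VLDLR. A further 7 genes were called in opposite directions (6.4% of all genes), each lower with sh6 and higher with sh1. The remaining 16 were 10 called with sh6 and not with sh1 (23.1% of all genes), 3 called with sh1 and not with sh6 (14.3%), and 3 called with neither (17.9%), of which the 10 are near the share of all genes. The share of all genes called was so high in these libraries that a single call says little about the set, and the direction and the size of the changes carry more of the description. The share of all genes whose groups did not overlap was not counted. Separation of libraries, where given below, therefore describes single genes and is not shown to be particular to the set.

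**Figure D1:**
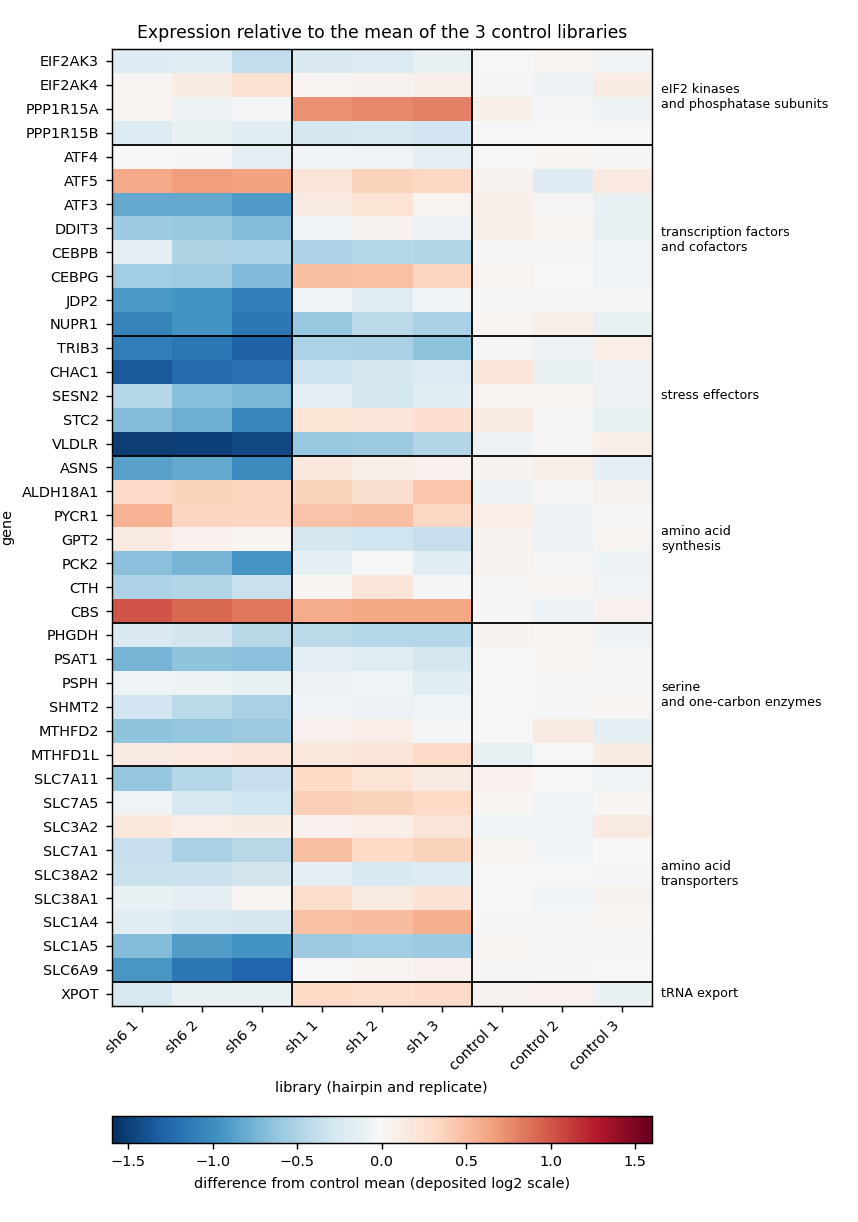
Heat map of the 40 genes (rows, grouped by role) in the 9 libraries (columns), coloured by the difference of the deposited log2 value from the mean of the 3 control libraries. The sh6 columns are mostly blue (28 genes called lower), the sh1 columns hold both colours (13 lower and 14 higher), and ATF4 is pale in all 9.

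Of the 4 genes of the set whose products set eIF2 phosphorylation, 2 kinases and 2 phosphatase subunits, PPP1R15A with sh1 had the largest change. EIF2AK3, known as PERK, the kinase that senses misfolded protein in the endoplasmic reticulum, had normalised counts of 382, 384 and 328 with sh6, 375, 377 and 408 with sh1, and 451, 464 and 434 in the control libraries. All 6 hairpin libraries lay below the 3 controls, with log2 changes of -0.27 (SE 0.0734, adjusted p = 0.0021) with sh6 and -0.19 (SE 0.0734, adjusted p = 0.0268) with sh1. The sh1 call of EIF2AK3 was lost without control replicate 1 (adjusted p = 0.0619), control replicate 2 (0.0772), sh1 replicate 1 (0.0915) or sh1 replicate 2 (0.0814). EIF2AK4, known as GCN2, the kinase that senses uncharged transfer RNA, was called with neither hairpin and averaged 1045 ± 83.1 with sh6, 984 ± 18.9 with sh1 and 947 ± 72.3 in control cells (SD, n = 3 each). Its log2 change with sh6 was 0.13 (adjusted p = 0.0692), and it was called without control replicate 3 (adjusted p = 0.0114) or sh6 replicate 1 (0.0173). It was also called with sh6 under centring on sample medians (adjusted p = 0.0309), quantile normalisation (0.0418) and the replicate block (0.0495).

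PPP1R15B, known as CReP, the standing phosphatase subunit that removes the phosphate from eIF2, had 1984, 2125 and 2033 with sh6, 1889, 1921 and 1863 with sh1, and 2325, 2297 and 2315 in the control libraries. It fell to 88.5% of the control mean with sh6 (adjusted p = 0.00504) and 81.8% with sh1 (adjusted p = 3.2e-05), without overlap between either hairpin and control. PPP1R15A, known as GADD34, the stress-induced subunit of the same phosphatase, had 631, 579 and 606 with sh6, 1062, 1093 and 1119.9 with sh1, and 663, 606 and 581 in the control libraries. It rose 1.77-fold with sh1, a log2 change of 0.77 (SE 0.0643, adjusted p = 1.1e-11), while the sh6 and control libraries overlapped and sh6 gave -0.02 (SE 0.0643, adjusted p = 0.764). The difference of sh6 from sh1 was -0.79 (SE 0.0643, adjusted p = 6.2e-12) on the log2 scale.

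ATF4 mRNA itself was called in none of the comparisons. Its normalised counts were 16053, 15789 and 14526 with sh6, 15617, 15524 and 14614 with sh1, and 16159, 16457 and 15837 in the control libraries. The 3 sh1 libraries lay below the 3 controls by a small margin and the sh6 libraries overlapped them. The log2 changes were -0.06 with sh6, with a 95% interval of -0.17 to 0.04 (adjusted p = 0.285), and -0.08 with sh1, with a 95% interval of -0.19 to 0.03 (adjusted p = 0.18). The direction with sh1 turned under quantile normalisation, which gave 0.16 (adjusted p = 0.0102). ATF4 protein was not measured.

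Of the 7 other transcription factors and cofactors, 6 were called lower with sh6 (33.6% of all genes) and ATF5 was called higher (34.2%). ATF3, a stress-induced repressor and activator of the bZIP family, had 211, 213 and 197 with sh6, 467, 498 and 434 with sh1, and 447, 426 and 386 in the control libraries. DDIT3, which encodes CHOP and drives cell death in prolonged stress, had 272, 267 and 248 with sh6, 424, 459 and 405 with sh1, and 465, 451 and 399 in the control libraries. JDP2, a bZIP repressor that partners Jun and ATF3, had 325, 316 and 279 with sh6, 636, 587 and 645 with sh1, and 653, 680.2 and 676 in the control libraries. For all 3 genes every sh6 library lay below every sh1 and control library, while sh1 overlapped control in ATF3 and DDIT3 and lay just below it in JDP2. The sh6 means were 49.4%, 59.9% and 45.8% of the control means (adjusted p at most 1.3e-08). With sh1 none of the 3 was called, with log2 changes of 0.13 for ATF3, -0.03 for DDIT3 and -0.10 for JDP2 (adjusted p at least 0.128). The difference of sh6 from sh1 was called for each, at -0.98, -0.60 and -0.90 on the log2 scale (adjusted p at most 4.5e-08).

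NUPR1, a small chromatin-associated stress cofactor, had 847, 918 and 789 with sh6, 1193, 1360.4 and 1261 with sh1, and 1880.1, 1970.0 and 1688 in the control libraries. Its 3 groups did not overlap, with sh6 at 46.1% and sh1 at 68.9% of the control mean, log2 changes of -1.06 (SE 0.0659, adjusted p = 5.8e-15) and -0.52 (SE 0.0659, adjusted p = 6.6e-08). CEBPB, a C/EBP protein that pairs with ATF4, had 2708, 2142 and 2101 with sh6, 2131, 2189 and 2163 with sh1, and 3066, 3064 and 2926 in the control libraries. It fell with both hairpins, by 0.38 on the log2 scale with sh6 (adjusted p = 7.7e-06) and by 0.47 with sh1 (adjusted p = 3.6e-07), and sh6 replicate 1 was the highest of the hairpin libraries. CEBPG, another C/EBP partner of ATF4, had 495, 489 and 442 with sh6, 1087, 1071 and 978 with sh1, and 779, 762 and 731 in the control libraries. Its groups were fully separated in opposite directions, 62.8% of the control mean with sh6 and 1.38-fold the control mean with sh1. ATF5, a factor under the same kind of translational control as ATF4, had 279.6, 295 and 287 with sh6, 198, 228 and 220.3 with sh1, and 172, 135 and 188 in the control libraries. It rose 1.74-fold with sh6 (adjusted p = 1.5e-07) and 1.30-fold with sh1 (adjusted p = 0.00383), and the sh1 call was lost without control replicate 2 (log2 change 0.20, adjusted p = 0.055).

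**Figure D2:**
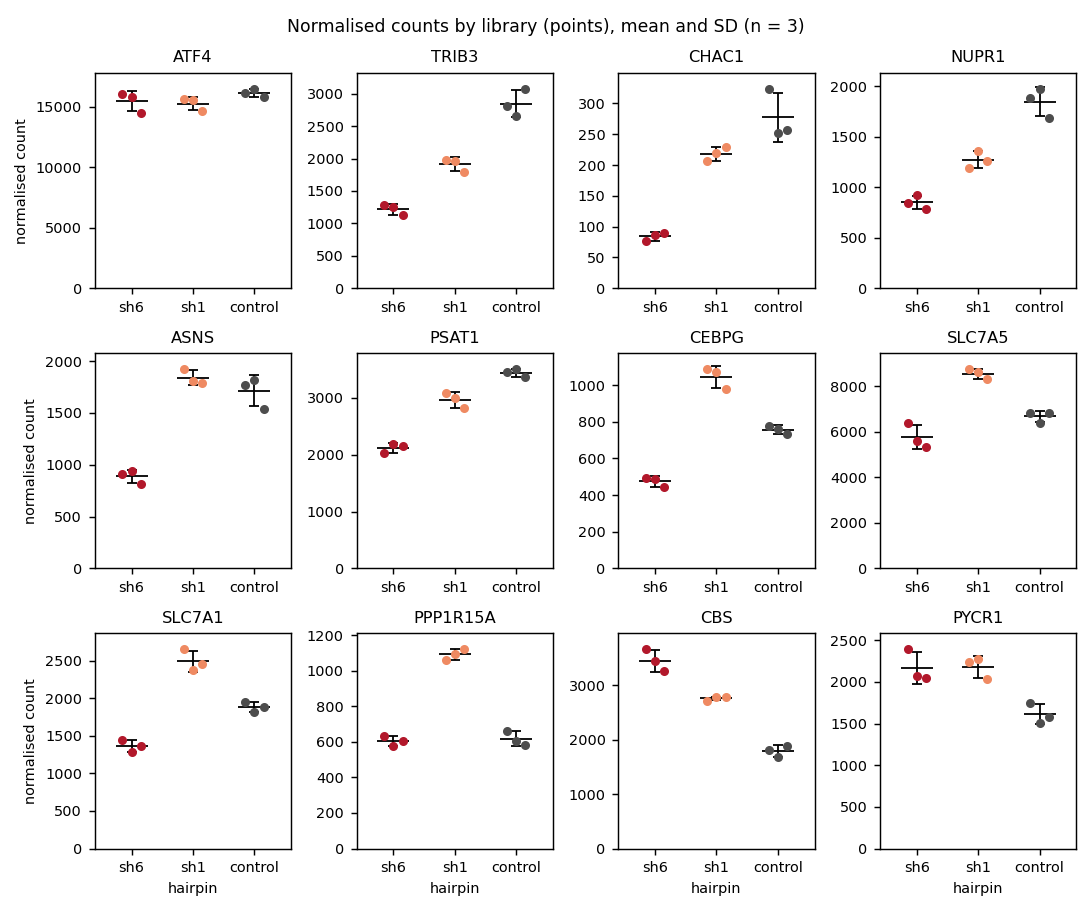
Normalised counts (linear axes from 0) of 12 genes in each library, with points for libraries and a bar with whiskers for mean and SD (n = 3). ATF4 overlaps between sh6 and control, TRIB3, CHAC1, NUPR1 and PSAT1 are lowest with sh6 and highest in control, CEBPG, SLC7A5 and SLC7A1 stand above control with sh1 and below it with sh6, and CBS and PYCR1 stand above control with both.

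All 5 stress effectors were called lower with sh6 (33.6% of all genes tested were). VLDLR, CHAC1 and TRIB3 had the 3 largest falls of the 40 genes with that hairpin on the deposited log2 scale. VLDLR, a lipoprotein receptor, had 383, 386 and 401 with sh6, 769, 771 and 851 with sh1, and 1118, 1214 and 1269 in the control libraries. TRIB3, a pseudokinase that restrains ATF4 and AKT, had 1282, 1245 and 1126 with sh6, 1981, 1969 and 1796 with sh1, and 2808, 2662 and 3069 in the control libraries. CHAC1, an enzyme that breaks down glutathione, had 76.3, 85.9 and 90.3 with sh6, 206, 219.8 and 229 with sh1, and 323, 252 and 257 in the control libraries. In each of these genes the 3 groups were fully separated, with sh6 lowest and sh1 between sh6 and control. With sh6 VLDLR stood at 32.5% of the control mean, TRIB3 at 42.8% and CHAC1 at 30.3% (adjusted p at most 1.1e-13). With sh1 the shares were 66.4%, 67.3% and 78.6%, with log2 changes of -0.55 (SE 0.0653, adjusted p = 1.4e-08), -0.55 (SE 0.0615, adjusted p = 4.2e-09) and -0.27 (SE 0.0882, adjusted p = 0.00841). The CHAC1 call with sh1 was lost without control replicate 1, its highest control library (log2 change -0.18, adjusted p = 0.107). All 3 were lower with sh6 than with sh1, with log2 differences of -0.93 for VLDLR, -0.63 for TRIB3 and -0.98 for CHAC1 (adjusted p at most 3.6e-10). An antisense transcript of VLDLR is in the table, at no more than 10.4 normalised counts in any library.

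SESN2, a leucine sensor that holds back mTORC1, had 378, 315 and 304 with sh6, 481, 435 and 474 with sh1, and 564, 559 and 508 in the control libraries. It fell by 0.62 on the log2 scale with sh6 (adjusted p = 1.9e-08) and by 0.21 with sh1 (adjusted p = 0.0214). The groups did not overlap, but the sh1 call was lost without control replicate 1 (adjusted p = 0.0818), control replicate 2 (0.0597) or sh1 replicate 2 (0.108). STC2, a secreted glycoprotein hormone, went opposite ways, with 1389, 1308 and 1063 with sh6, 2667, 2629 and 2770.4 with sh1, and 2515, 2264 and 2098 in the control libraries. Its groups did not overlap, and it stood at 54.7% of the control mean with sh6 (adjusted p = 8.0e-12) and rose 1.17-fold with sh1 (adjusted p = 0.00694).

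Of the 7 amino acid synthesis enzymes, ASNS, PCK2 and CTH were lower with sh6 and not called with sh1, ALDH18A1, PYCR1 and CBS were higher with both hairpins, and GPT2 was lower with sh1 alone. ASNS, asparagine synthetase, had 908, 940.0 and 818 with sh6, 1920.3, 1807 and 1788 with sh1, and 1773, 1822 and 1541 in the control libraries. PCK2, the mitochondrial phosphoenolpyruvate carboxykinase, had 652, 616 and 525 with sh6, 961, 1078 and 936 with sh1, and 1114, 1088 and 1013 in the control libraries. CTH, the enzyme that releases cysteine from cystathionine, had 77.6, 79.4 and 90.3 with sh6, 134, 158 and 127 with sh1, and 132, 135 and 124 in the control libraries. For each, the sh6 libraries lay below every other library, at 51.9%, 55.7% and 63.2% of the control mean (adjusted p at most 6.4e-05), while sh1 and control libraries overlapped and sh1 was not called (adjusted p at least 0.172). The difference of sh6 from sh1 was -1.0 (SE 0.0642, adjusted p = 2.4e-14) for ASNS, -0.68 (SE 0.0707, adjusted p = 1.3e-09) for PCK2 and -0.51 (SE 0.0891, adjusted p = 1.2e-05) for CTH.

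ALDH18A1, which makes the precursor shared by proline and ornithine, had 1565, 1617 and 1600.2 with sh6, 1618, 1509 and 1719 with sh1, and 1181, 1271 and 1298 in the control libraries. PYCR1, which completes proline synthesis in mitochondria, had 2389, 2066 and 2049 with sh6, 2237, 2272 and 2033 with sh1, and 1742, 1509.9 and 1578 in the control libraries. Every hairpin library lay above every control library for both genes, and the means were 1.28-fold and 1.29-fold for ALDH18A1 and 1.35-fold and 1.35-fold control for PYCR1 with sh6 and sh1 (adjusted p at most 8.7e-06). The difference of sh6 from sh1 had 95% intervals of -0.14 to 0.10 for ALDH18A1 and -0.14 to 0.12 for PYCR1 on the log2 scale. CBS, which joins serine and homocysteine into cystathionine, had 3662, 3439 and 3257 with sh6, 2722, 2779 and 2782 with sh1, and 1818, 1674 and 1878 in the control libraries. Its 3 groups were fully separated, 1.93-fold control with sh6 and 1.54-fold control with sh1, log2 changes of 0.92 (SE 0.0561, adjusted p = 3.4e-15) and 0.61 (SE 0.0561, adjusted p = 8.6e-11). A near-identical entry, CBSL, can share its reads, and it averaged 555 ± 47.3 with sh6, 451 ± 32.7 with sh1 and 280.1 ± 19.2 in control cells (SD, n = 3 each), so the division of reads between CBS and CBSL is uncertain. Within transsulfuration, CBS and CTH thus carried opposite calls with sh6. GPT2, the mitochondrial alanine aminotransferase, had 3150.3, 3002 and 2916 with sh6, 2338, 2275 and 2196 with sh1, and 2969, 2665 and 2946 in the control libraries. It fell with sh1 by 0.32 on the log2 scale (adjusted p = 8.5e-06), with every sh1 library below every sh6 and control library, and was not called with sh6 (log2 change 0.08, adjusted p = 0.206).

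Serine synthesis enzymes were lower with both hairpins at its earlier steps. PHGDH, which commits glycolytic carbon to serine, had 5368, 5133 and 4638 with sh6, 4730.0, 4595 and 4599.6 with sh1, and 6572, 6455 and 5997 in the control libraries. PSAT1, which transfers the amino group, had 2021, 2185 and 2147 with sh6, 3088, 2995 and 2815 with sh1, and 3452, 3500.5 and 3364 in the control libraries. PSPH, which removes the phosphate to yield serine, had 4204, 4186 and 4089 with sh6, 4132, 4243 and 3938 with sh1, and 4441, 4354 and 4480.2 in the control libraries. PHGDH stood at 79.6% of the control mean with sh6 and 73.2% with sh1, and PSAT1 at 61.6% and 86.3%, called in each case (adjusted p at most 0.00124). For PHGDH the hairpin groups overlapped, while for PSAT1 sh6 lay lowest, with a log2 difference from sh1 of -0.47 (SE 0.0537, adjusted p = 7.0e-09), where the PHGDH difference was 0.12 (SE 0.0554, adjusted p = 0.0705). PSPH was called with neither, with 95% intervals of -0.19 to 0.02 with sh6 and -0.21 to -0.0046 with sh1 (adjusted p = 0.123 and 0.0669), although its hairpin libraries all lay below its controls. Without sh6 replicate 1 PSPH was called with sh1 (adjusted p = 0.0488), and the PHGDH difference was called without control replicate 3 (adjusted p = 0.0421) or sh6 replicate 3 (0.0116). Quantile normalisation called PSPH with sh6 (adjusted p = 0.0374). The PHGDH difference was also called with only the groups compared (0.0487) and with the replicate block (0.0402).

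The mitochondrial folate enzymes that use serine did not share a direction. SHMT2, which splits serine into glycine and a carbon unit, had 2952, 2709 and 2552 with sh6, 3574, 3451 and 3504 with sh1, and 3681, 3606 and 3756 in the control libraries. MTHFD2, which oxidises that unit, had 1769, 1796 and 1846 with sh6, 2932, 3002 and 2733 with sh1, and 2799.8, 3075 and 2529 in the control libraries. MTHFD1L, which releases it as formate, had 1126, 1148 and 1177 with sh6, 1173, 1191 and 1288 with sh1, and 937, 1021 and 1122 in the control libraries. SHMT2 and MTHFD2 fell with sh6, to 74.4% and 64.4% of control (adjusted p at most 6.0e-08), and were not called with sh1 (log2 changes -0.07 and 0.05, adjusted p at least 0.294). The sh1 libraries of SHMT2 lay just below control and those of MTHFD2 overlapped it. Both genes were lower with sh6 than with sh1, with log2 differences of -0.35 and -0.66 (adjusted p at most 1.8e-06). All hairpin libraries of MTHFD1L lay above its controls, and it rose 1.12-fold with sh6 (adjusted p = 0.028) and 1.19-fold with sh1 (adjusted p = 0.00204). The sh6 call of MTHFD1L was lost without control replicate 1 (log2 change 0.098, adjusted p = 0.222), sh6 replicate 2 (0.0582) or sh6 replicate 3 (0.0811). A fit without the mean trend also lost it (0.0567).

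**Figure D3:**
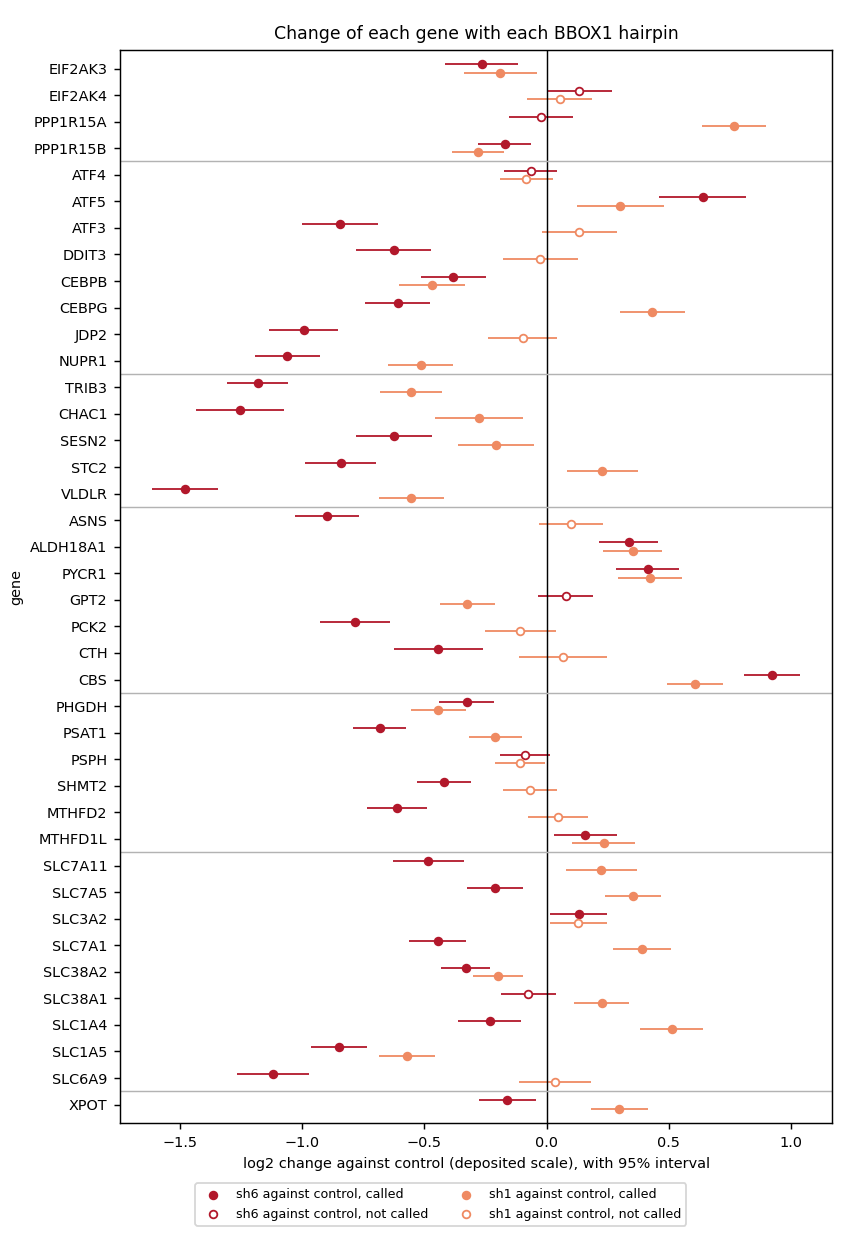
Log2 change against control on the deposited scale (horizontal axis, with 95% intervals) of the 40 genes for sh6 (dark red) and sh1 (orange), filled where called. Several genes, among them CEBPG, STC2, SLC7A1 and SLC1A4, have the sh6 and sh1 points on opposite sides of 0, and ATF4 has both open points near 0.

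Of the 9 amino acid transporters, 7 were called lower with sh6 (33.6% of all genes) and 5 higher with sh1 (29.0%), and 4 of them carried both calls (6.4%). SLC7A5, the LAT1 carrier of leucine and other large neutral amino acids, had 6359, 5585 and 5348 with sh6, 8736, 8598 and 8307 with sh1, and 6802, 6388 and 6819 in the control libraries. SLC7A1, the carrier of arginine and lysine, had 1439.7, 1289 and 1364 with sh6, 2648, 2369 and 2449.8 with sh1, and 1942, 1813 and 1885 in the control libraries. SLC1A4, a carrier of alanine, serine and cysteine, had 579, 539 and 536 with sh6, 935, 957 and 1008 with sh1, and 651, 649.5 and 675 in the control libraries. Each of these is an importer whose induction by ATF4 is known from amino acid starvation. SLC7A11, the xCT subunit that imports cystine in exchange for glutamate, had 440.0, 501 and 533 with sh6, 905, 836 and 784 with sh1, and 751, 706 and 675 in the control libraries. In all 4 every sh6 library lay below, and every sh1 library above, every control library. With sh6 they stood at 86.4%, 72.6%, 83.7% and 69.2% of the control mean (adjusted p at most 0.00167). With sh1 they were 1.28-fold, 1.32-fold, 1.47-fold and 1.18-fold control (adjusted p at most 0.00769). The SLC7A11 call with sh1 was lost without sh1 replicate 1 (adjusted p = 0.071). A pseudogene of SLC7A5 in the table, SLC7A5P2, averaged 15.6 ± 5.52 with sh6, 14.2 ± 9.52 with sh1 and 13.0 ± 2.53 in control cells (SD, n = 3 each).

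SLC3A2, the heavy chain that carries both SLC7A5 and SLC7A11 to the membrane, had small changes, with 4594, 4399 and 4407 with sh6, 4292, 4405 and 4698 with sh1, and 3879.6, 3868 and 4495 in the control libraries. Its hairpin libraries overlapped control replicate 3, and it was 1.09-fold control with sh6 (adjusted p = 0.0427) and 1.09-fold with sh1 (adjusted p = 0.0504). The sh6 call of SLC3A2 was lost without control replicate 1 (adjusted p = 0.201), control replicate 2 (0.17), replicate 1 (0.0534) or 2 (0.0525) of sh1, or replicate 1 (0.114), 2 (0.0609) or 3 (0.0584) of sh6. That call was also lost without the filter (0.058), without the mean trend (0.107), with only the groups compared (0.0655) and under quantile normalisation (0.0964). Without control replicate 3 the log2 change with sh6 was 0.20, and sh1 was called (adjusted p = 0.00155). It was also called with sh1 without sh1 replicate 1 (0.0472) or sh6 replicate 1 (0.0424). Other settings that called it with sh1 were centring on sample medians (0.023), quantile normalisation (2.75e-04), the replicate block (0.0301) and a robust variance prior (0.0495).

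SLC1A5, the ASCT2 carrier of glutamine, was lower with both hairpins, with 5079, 4419 and 4242 with sh6, 5530.4, 5602 and 5519 with sh1, and 8541, 8134 and 8165 in the control libraries. All 6 hairpin libraries lay below the controls, at 55.3% of the control mean with sh6 and 67.0% with sh1, log2 changes of -0.85 (SE 0.0565, adjusted p = 3.0e-14) and -0.57 (SE 0.0565, adjusted p = 4.0e-10). SLC38A2, the starvation-induced carrier SNAT2, had 4868, 4943 and 5089.9 with sh6, 5639.6, 5281 and 5444 with sh1, and 6311, 6318 and 6172 in the control libraries. It fell by 0.33 on the log2 scale with sh6 (adjusted p = 8.5e-07) and by 0.20 with sh1 (adjusted p = 0.00106), and quantile normalisation left -0.057 with sh1 (adjusted p = 0.304). The difference of sh6 from sh1 (log2 -0.13, adjusted p = 0.0224) was lost on leaving out replicate 1 (adjusted p = 0.115) or 3 (0.0587) of sh1, or replicate 1 (0.0507) or 2 (0.0628) of sh6. A fit without the mean trend also lost that difference (0.0572). SLC38A1, the related carrier SNAT1, had 5178, 5035 and 5724 with sh6, 6858, 6205 and 6594 with sh1, and 5542, 5431 and 5799 in the control libraries. It rose 1.17-fold with sh1 (adjusted p = 8.2e-04), above every control, and was not called with sh6 (adjusted p = 0.235).

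SLC6A9, the glycine carrier GLYT1, had the largest difference between the hairpins in the set on the deposited log2 scale, while by the ratio of mean counts CHAC1 differed more, with sh1 2.59-fold above sh6 against 2.43-fold for SLC6A9. Its normalised counts were 395, 329 and 301 with sh6, 804, 839 and 849.8 with sh1, and 825, 795 and 813 in the control libraries. With sh6 it stood at 42.2% of the control mean, a log2 change of -1.12 (SE 0.0722, adjusted p = 1.4e-14), while sh1 and control libraries overlapped and gave a log2 change of 0.03 (SE 0.0722, adjusted p = 0.711). The difference of sh6 from sh1 was -1.15 (SE 0.0722, adjusted p = 1.3e-14). XPOT, which exports transfer RNA from the nucleus, had 2787, 3074 and 3101 with sh6, 4191, 4057 and 4131 with sh1, and 3461, 3519.6 and 3064 in the control libraries. It rose 1.23-fold with sh1, above every control (adjusted p = 4.3e-05), and fell by 0.16 on the log2 scale with sh6 (adjusted p = 0.0145), where the libraries overlapped control replicate 3. The sh6 call of XPOT was lost without control replicate 1 (adjusted p = 0.077), control replicate 2 (0.0751) or sh6 replicate 1 (0.091). A fit without the mean trend also lost it (0.0509).

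The core TGATGNAA can be set beside the changes. The 8 genes with the core had a median log2 change of -0.31 with sh6, ranging from -1.26 in CHAC1 to 0.16 in MTHFD1L, and the 26 genes whose windows lacked it had a median of -0.41. With sh1 the medians were 0.13 with the core and 0.0040 without it. These are descriptions of small groups and carry no test.

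Further genes of the pathway were counted in the same fit, beside the shares of all genes given above. They came from lists chosen by function, with earlier results of these data known. Of 14 genes of eIF2, its exchange factor eIF2B and their regulators tested, 8 were lower and 5 higher with sh6, and 6 lower and 4 higher with sh1. EIF2S3, the gamma subunit of eIF2, averaged 2689.8 ± 154 with sh6, 3282 ± 7.33 with sh1 and 4172 ± 157 in control cells (SD, n = 3 each). IMPACT, an inhibitor of GCN2, averaged 274 ± 32.0 with sh6, 266 ± 23.2 with sh1 and 404 ± 14.5 in control cells (SD, n = 3 each), and EIF2B3, a subunit of eIF2B, averaged 659 ± 22.6 with sh6, 679.9 ± 45.8 with sh1 and 490.4 ± 36.5 in control cells (SD, n = 3 each). The kinases among them, singled out after their values were seen, were EIF2AK1, the haem-regulated kinase, which stood at 74.4% of control with sh6 (adjusted p = 1.7e-08) and 99.3% with sh1 (adjusted p = 0.883), and EIF2AK2, known as PKR, which senses double-stranded RNA. EIF2AK2 rose 1.20-fold with sh6 (adjusted p = 4.8e-04) and 1.12-fold with sh1 (adjusted p = 0.0238). EIF2S3 and IMPACT were lower and EIF2B3 higher with both hairpins (adjusted p at most 1.2e-05).

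Of 16 other serine, folate and methionine cycle enzymes tested, 3 were lower and 5 higher with sh6, and 7 lower and 6 higher with sh1. MTHFD1, the cytosolic folate enzyme, rose 1.34-fold with sh6 and 1.40-fold with sh1, whereas MAT2B, a regulatory subunit of methionine adenosyltransferase, stood at 77.8% of the control mean with sh6 and 73.2% with sh1 (adjusted p at most 1.8e-06). Of 15 other enzymes of amino acid synthesis and transamination, 10 were lower and 3 higher with sh6, and 7 lower and 3 higher with sh1. GLUL, glutamine synthetase, averaged 6219 ± 187 with sh6, 4631 ± 114 with sh1 and 12542 ± 271 in control cells (SD, n = 3 each). GLUD1, glutamate dehydrogenase, averaged 1659 ± 74.2 with sh6, 2305 ± 88.0 with sh1 and 3012 ± 87.0 in control cells (SD, n = 3 each). PRODH, which degrades proline, averaged 41.0 ± 10.5 with sh6, 105 ± 8.64 with sh1 and 308 ± 30.0 in control cells (SD, n = 3 each), lower with both hairpins while the proline synthesis genes ALDH18A1 and PYCR1 were higher. All 3 passed the test with both hairpins (adjusted p at most 6.0e-07).

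Of 17 other amino acid transporters tested, 7 were lower and 5 higher with sh6, 5 lower and 6 higher with sh1, and 5 were called in opposite directions. SLC6A14, a broad carrier of neutral and cationic amino acids, averaged 214 ± 26.6 with sh6, 544 ± 20.4 with sh1 and 1471 ± 31.2 in control cells (SD, n = 3 each). SLC43A2, a LAT-type carrier, averaged 935 ± 43.2 with sh6, 395 ± 33.0 with sh1 and 1317 ± 99.4 in control cells (SD, n = 3 each), and SLC1A2, a glutamate carrier, averaged 26.7 ± 1.88 with sh6, 52.0 ± 7.78 with sh1 and 116 ± 30.7 in control cells (SD, n = 3 each). All 3 were lower with both hairpins (adjusted p at most 2.2e-06).

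A list of other stress-induced genes holds targets of ATF4 or CHOP and also genes known as targets or parts of other stress pathways, such as CDKN1A, SESN1, SESN3 and ERN1. It was mostly lower, with 11 of 19 tested called lower with both hairpins (19.4% of all genes were). Of the 19, 16 were lower and 1 higher with sh6, and 11 lower and 4 higher with sh1. DDIT4, an inhibitor of mTORC1, averaged 1194 ± 174 with sh6, 1771 ± 15.3 with sh1 and 3249 ± 313 in control cells (SD, n = 3 each). NDRG1 averaged 1060.4 ± 127 with sh6, 1627 ± 275 with sh1 and 4340.3 ± 640.5 in control cells (SD, n = 3 each) and VEGFA, the endothelial growth factor, 781 ± 38.2 with sh6, 1408 ± 48.2 with sh1 and 2767 ± 395 in control cells (SD, n = 3 each), and these 3 genes are also known to be induced by hypoxia. The adjusted p was at most 2.2e-11 for the 3 genes with either hairpin.

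**Figure D4:**
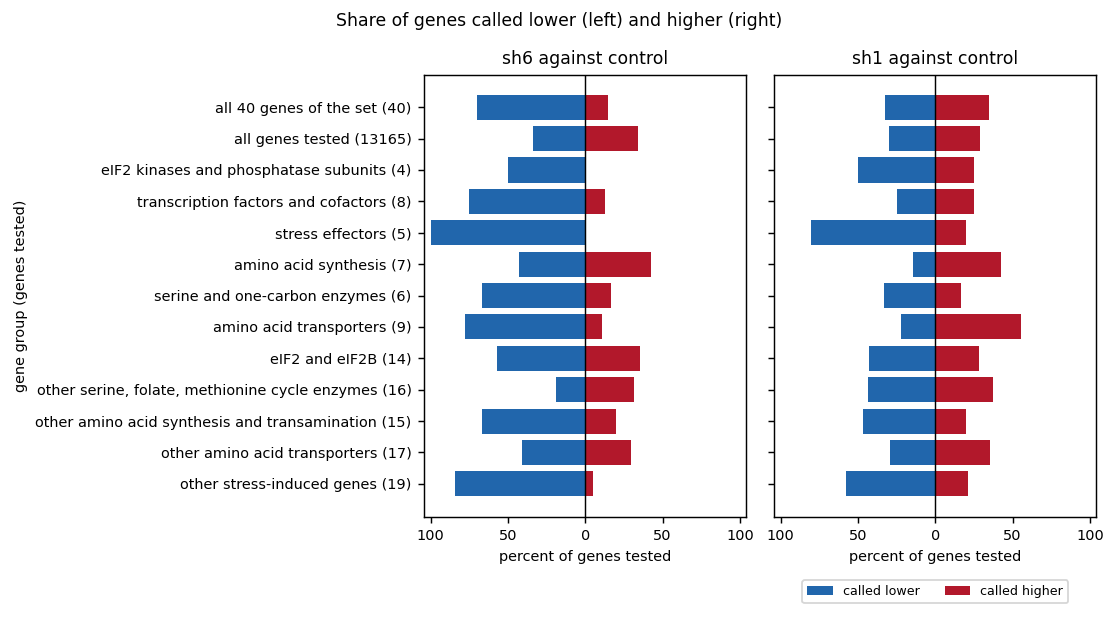
Percentage of genes tested that were called lower (blue, to the left) and higher (red, to the right) in each role group and pathway list, for sh6 and sh1 against control, with numbers of genes tested in brackets. With sh6 all 5 stress effectors and 16 of 19 other stress-induced genes were called lower, against 33.6% of all genes tested, and with sh1 5 of 9 amino acid transporters were called higher, against 29.0%.

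In the authors' deposited table, which gives its own fold change and adjusted p for a comparison whose samples are not stated, 16 of the 40 genes had an adjusted p under 0.05 (33.1% of all genes with one). Of these, 11 were lower and 5 higher, and all 16 were among the 17 called here in the same direction with both hairpins. The authors' values belong to the same deposited data, so this overlap is not independent of the calls made here. CHAC1 was the remaining gene of the 17, listed in the authors' deposited table with a log2 fold change of -0.88 and an adjusted p of 0.0552.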

How the data were processed

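RNA was sequenced as pairs of 100-base reads, per the labels. Per the submitters' processing notes, the authors' build was hg19 and their tools include Salmon, STAR, cutadapt and DESeq2, and no versions are given. The deposited log2 values were made by the authors with a variance-stabilising transformation, and are called batch-corrected in the file's name, though the steps of whole reads are still seen in them. All 9 columns share the floor 5.02. The authors also deposited a log2 fold change and an adjusted p-value per gene. Inverting the transformation gave normalised counts, and of values between 0.5 and 20.5 reads 76.6% to 80.4% per library were whole within 0.05. Folds are ratios of means of these counts. Each log2 change is a difference of deposited values, a scale that understates changes of low genes. Counts are not scaled by gene length, and the sources used here do not give how strand was treated.

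The filter kept the 13165 genes with a mean 1 or more above the floor (normalised count 16.2). limma 3.58.1 in R 4.3.3 was fitted to all 9 libraries in 1 model of 3 groups, two-sided, with eBayes and a mean trend, Benjamini-Hochberg adjustment over all genes kept and a threshold of 0.05. The script was tested on simulated data. The 40 genes and all lists were chosen with earlier results of these data known. Naming rules were that all 40 are given and that each further list names the 3 largest mean changes among genes called alike with both hairpins. 1 gene that this rule names is not reported here. Alternatives were other filters, scalings, variance priors, call rules, measures, a replicate block and leaving out each library. Deviations from the group mean had r from -0.13 to 0.18 between same-numbered libraries and from -0.18 to 0.17 between differently numbered libraries. These ranges overlap and do not settle whether same-numbered libraries deviated together. The values are called batch-corrected, and such a correction could have removed pairing. Whether replicate numbers pair samples therefore cannot be told from them.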

Additional observations from a re-analysis of the deposited data

Results flagged for a closer look

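In 7 of the 40 genes the hairpins moved expression in opposite directions against the same controls, each called with both (6.4% of all genes tested). The difference between the hairpins was then called in limma too. Opposite calls against shared controls all but fix that outcome, so it adds no support. On the log2 scale, sh6 minus sh1 was -1.04 for CEBPG, -1.07 for STC2, -0.71 for SLC7A11, -0.57 for SLC7A5, -0.84 for SLC7A1, -0.75 for SLC1A4 and -0.46 for XPOT (adjusted p at most 4.2e-08). All 7 were lower with sh6 and higher with sh1. The sh6 libraries of XPOT overlapped control, and its sh6 call was lost without control replicate 1, control replicate 2 or sh6 replicate 1. The SLC7A11 call with sh1 was lost without sh1 replicate 1 (adjusted p = 0.071). BBOX1 mRNA was at 23.0% of the control mean with sh6 and 12.7% with sh1, and its part in these differences was not tested.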

How the results depend on the processing

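With a change of at least 1.5-fold required as well, on the deposited log2 scale, the count of the 40 genes called was 18 with sh6, 2 with sh1, 6 for the mean of both hairpins, 16 between sh6 and sh1, and 1 with both hairpins in the same direction, since most changes were smaller. Under all other alternatives run, each of these totals stayed within 1.5 times its reported value, while the 8 genes higher for the mean of both hairpins became 5 without control replicate 1. Leaving out each library in turn gave 31 to 35 genes with sh6, 24 to 29 with sh1, 26 to 32 for the mean of both, 28 to 30 between the hairpins and 13 to 18 with both in the same direction. The replicate block, whose numbers may or may not pair the samples, gave 35, 28, 32, 30 and 18 for the same counts. Calls were gained in it for EIF2AK4 with sh6, SLC3A2 with sh1 and PHGDH between the hairpins. Leaving aside the 1.5-fold rule, 10 of 90 calls of single genes were lost under at least 1 alternative. Under quantile normalisation ATF4 turned to 0.1551 with sh1, and the differences between sh6 and sh1 turned to -0.1457 for ATF4, -0.1259 for PSPH and -0.1543 for SLC3A2, each past the threshold, and the cause was not tested. Centring on sample medians and quantile normalisation shifted the median of all genes by at most 0.025. The mean of both hairpins has no separate fit on the compared groups only.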
